A study of Mus musculus with 2 samples.

Results

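Krt6a, Krt6b, Krt16 and Krt17, the stress keratins of the skin, were followed through the cell classes of dorsal skin from mice treated with testosterone propionate (TP) and from vehicle controls. The 4 genes were chosen by their symbols from 32285 measured genes, 53 of which are keratin genes, and the choice was made because Krt6b had the largest increase between the libraries over all cells. The levels over all cells are therefore given as a description. All 4 members were measured in both libraries.

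Keratins are the intermediate filament proteins of epithelia and assemble as pairs of a type II and a type I chain. KRT6A and KRT6B are type II chains, and KRT16 and KRT17 are type I chains. The interfollicular epidermis (IFE) carries Krt5 and Krt14 in its basal layer and Krt1 and Krt10 in its suprabasal layers. Krt6, Krt16 and Krt17 are constitutive in parts of the hair follicle and other appendages, and are known to be induced in the epidermis after wounding and in hyperproliferative skin disease. Krt17 is also found in the outer root sheath and in other follicle compartments of healthy skin.

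Each library was made from the pooled dorsal skin of 15 male C3H/HeN mice aged 9 weeks. The TP library came from a model of androgenetic alopecia (AGA) in which shaved mice received TP at 0.5 mg per day under the skin from 7 weeks of age, and the control library (Con) from mice given the vehicle. Skin was digested with collagenase and whole cell suspensions were read by a droplet assay that counts unique molecular identifiers (UMIs) at the 3′ end of transcripts. With 1 library per group, no test could be made, and every interval below is a 95% interval for counting error alone. Differences between mice, dissociations and libraries are not in it. For levels and ratios, the uneven spread of UMIs over cells is not in it either.

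The members lie in both mouse keratin clusters (GRCm38). Krt16 (ENSMUSG00000053797, chr11:100246091-100248902) and Krt17 (ENSMUSG00000035557, chr11:100256215-100261029) are next to each other, between Krt14 and Krt42. Krt6b (ENSMUSG00000023041, chr15:101676023-101680293) and Krt6a (ENSMUSG00000058354, chr15:101689928-101694305) lie between Krt75 and Krt5. The coding sequences of Krt6a and Krt6b were identical at 1625 of 1662 aligned bases (97.8%), and their 3′ untranslated regions at 404 of 502 (80.5%). The ends of both coding sequences, from coding base 1513 to the stop codon, are shown because they illustrate how close the paralogs are beside the region that the assay reads; capitals mark bases that differ or have no partner in the other gene (GENCODE transcripts).
Krt6a: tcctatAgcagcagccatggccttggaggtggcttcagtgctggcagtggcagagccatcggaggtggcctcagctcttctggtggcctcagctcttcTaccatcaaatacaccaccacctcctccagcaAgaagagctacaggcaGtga
Krt6b: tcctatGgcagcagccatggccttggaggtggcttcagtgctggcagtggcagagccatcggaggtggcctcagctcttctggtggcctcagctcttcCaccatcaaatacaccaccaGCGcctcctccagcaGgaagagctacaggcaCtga
Of the 1633 windows of 30 bases in the coding part of Krt6a, 1117 (68.4%) occur unchanged in Krt6b, against 0 of 471 windows in its last 500 bases. A read inside the coding part may therefore match both genes and be left out of the count. For Krt16 and Krt17, 26 of 471 windows (5.52%) of the last 500 bases of Krt16 occur in Krt17.

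After limits on genes per cell, mitochondrial content and doublets, 39076 Con and 18542 TP cells were kept, with medians of 2045 and 4789.5 UMIs per cell. The libraries shared 303 barcodes, 187 of them among kept cells. Clusters were built without the 4 members and named from marker genes as 9 epithelial and 8 non-epithelial classes, and 6 of 30 clusters stayed unnamed. The IFE basal-, suprabasal- and granular-like classes took 4.15%, 5.04% and 3.55% of Con cells and 10.4%, 13.9% and 9.93% of TP cells. Upper hair follicle-like cells went from 2.63% to 7.52% and outer bulge-like cells from 1.53% to 8.38%, whereas inner root sheath-like cells went from 14.3% to 5.05% and germinative layer-like cells from 5.13% to 1.52%. These shares come from 1 suspension per group, and the part of dissociation or hair cycle stage in them was not tested.

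Levels are UMIs of a gene per 1000000 UMIs of the cells named (CPM). Over all kept cells, Krt6b was at 0.407 CPM in Con (43 UMIs) and 19.2 CPM in TP (2535 UMIs), a ratio of 47.2 (34.9 to 65.4). Krt16 was at 8.05 and 156 CPM, a ratio of 19.4 (18.1 to 20.8). Krt6a was at 3.63 and 37.4 CPM, a ratio of 10.3 (9.30 to 11.5). The type I partner with a follicular base level, Krt17, stood highest of the 4 in both libraries, at 215 and 578 CPM, with the smallest ratio of 2.69 (2.65 to 2.73). Among the 14782 genes with at least 200 UMIs, Krt6b ranked 1st by its ratio, Krt16 8th, Krt6a 43rd and Krt17 600th, ratios that chose the members and support nothing further. The 2-fold limit for calling a gene was a difference of 1 or more in log2(counts per 10000 + 0.1) between the summed libraries. By that limit all 4 members were higher in TP, against 296 of 26217 genes with a UMI (1.13%) that were higher and 143 (0.545%) that were lower, a count from the same contrast that chose them. The median log2 difference was 1.64 over the members and -0.01 over all genes.

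Epithelial classes that hold these keratins took a larger share of the TP library, so the levels were also computed with the same cluster shares in both libraries. With the Con shares the ratio of Krt6a was 5.26 and with the TP shares 4.02. For Krt6b the ratios were 24.9 and 38.3, for Krt16 10.49 and 10.6, and for Krt17 1.54 and 1.45. Each member was thus higher in TP at fixed cluster shares too, with a smaller ratio than over all cells.

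**Figure D1:**
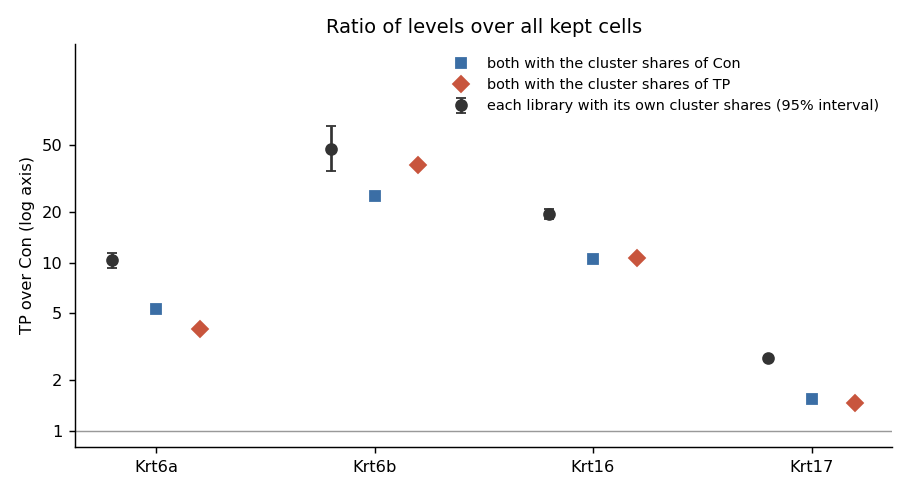
TP over Con ratio of each stress keratin over all kept cells (log axis): circles with 95% intervals use each library's own cluster shares, squares the Con shares in both libraries and diamonds the TP shares in both. For Krt6a the ratio of 10.3 became 5.26 and 4.02, and for Krt17 the ratio of 2.69 became 1.54 and 1.45.

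Free RNA in the droplets can place UMIs of a keratin in cells that do not express it, so the 8 non-epithelial classes served as background. Pooled, they held Krt6a at 1.07 CPM in Con and 5.28 in TP, Krt6b at 0.758 and 3.41, and Krt16 at 1.71 and 24.2. Krt17 was at 57.9 and 57.7 CPM there. The background of Krt6a, Krt6b and Krt16 was therefore itself higher in TP, by 4.91-fold (2.92 to 8.76), 4.503-fold (2.41 to 9.15) and 14.2-fold (9.63 to 21.8), while that of Krt17 was not (1.00, 0.91 to 1.09). Single cells weighed on the few Con UMIs of Krt6b: 10 of its 12 background UMIs were in 1 dermal papilla cell-like (DPC-like) cell. Without the cell with most UMIs in each library, the Krt6b background was at 0.126 CPM (2 UMIs) and 3.05 CPM, a ratio of 24.2 (6.40 to 204), and those of Krt6a and Krt16 had ratios of 6.05 and 13.6. A class is called above background below where the lower bound of its level exceeds the highest single non-epithelial class of the same library.

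Krt6a, a type II keratin of the outer root sheath and companion layer, was highest in Con in outer bulge-like cells, the follicle stem cell region, at 81.6 CPM (67.4 to 97.9, 115 UMIs). Upper hair follicle-like cells followed with 18.4 CPM and IFE basal-like cells with 14.8 CPM, and these neighbours did not differ beyond their counting error (ratio 1.245, 0.854 to 1.80). In TP the order was another. Upper hair follicle-like cells stood first at 172 CPM (163 to 181), then IFE basal-like cells at 103 CPM, outer bulge-like cells at 73.1 CPM and IFE suprabasal-like cells at 43.4 CPM, each apart from the next. The ratio of TP over Con was 9.31 (7.04 to 12.6) in upper hair follicle-like, 6.96 (5.51 to 8.93) in basal-like, 17.5 (10.6 to 31.5) in suprabasal-like and 6.45 (4.41 to 9.81) in granular-like cells. In outer bulge-like cells, the class with the highest Con level, the ratio was 0.896 (0.733 to 1.10). The interval lay above 1 in 10 of 15 epithelial classes and unnamed clusters, and it also included 1 in companion layer or medulla-like cells (2.28, 0.935 to 5.91, 9 and 15 UMIs), in germinative layer-like cells (0.569, 0.0124 to 4.69, 6 UMIs and 1) and in 2 unnamed clusters. It lay above 1 in the pooled background too (4.91, 2.92 to 8.76). Only 5 of the 15 were above background in TP, outer bulge-like cells among them. Inner root sheath-like cells were at 1.00 times the pooled level there. In Con, 21 of the 74 basal-like UMIs and 19 of the 51 upper hair follicle-like UMIs were in 1 cell each, and 48 of 1222 and 213 of 1395 in TP. Without those cells the ratios were 9.32 (7.08 to 12.5) and 12.5 (8.80 to 18.4). Both clusters of basal-like cells were higher in TP, the non-cycling one at 12.1 and 106 CPM and the cycling one, led by Anln and Ect2, at 22.7 and 95.02 CPM. Granular-like cells at 15.4 CPM in TP lay above the pooled non-epithelial level of 5.28 CPM but not above the highest single class, lymphocyte-like cells with 23.8 CPM from 5 UMIs, all in 1 of 84 cells. The median of the 8 non-epithelial classes was 4.93 CPM.

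**Figure D2:**
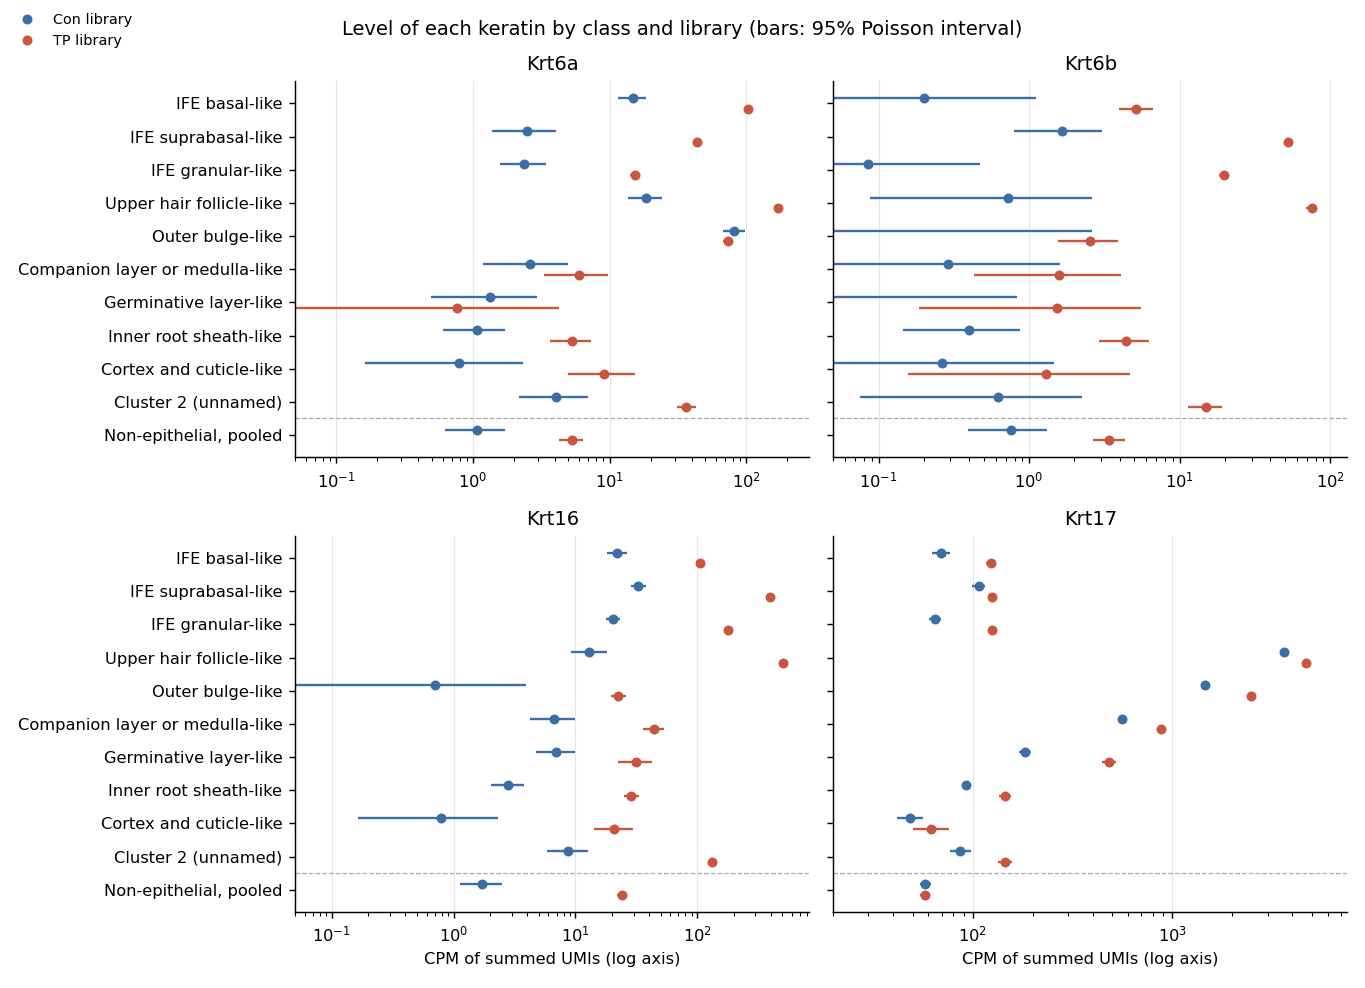
Level of each stress keratin by cell class in Con (blue) and TP (red), as CPM of summed UMIs on a log axis with 95% Poisson intervals; the pooled non-epithelial classes under the dashed line are the background. Krt6a in outer bulge-like cells has overlapping intervals, whereas Krt16 in upper hair follicle-like cells goes from 13.0 to 504 CPM.

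Krt6b, the closest paralog of Krt6a, was nearly absent from Con. Its 43 UMIs there were spread over the classes, 10 of them in 4 IFE suprabasal-like cells and 10 in 1 DPC-like cell, and no class lay above background. In TP, upper hair follicle-like cells held 610 UMIs (75.1 CPM) against 2 in Con (0.723 CPM), a ratio of 104 (28.6 to 859). IFE suprabasal-like cells held 1001 UMIs (52.7 CPM) against 10 (1.65 CPM), a ratio of 32.0 (17.3 to 66.9). Granular-like cells held 637 UMIs (19.6 CPM) against 1 (0.0852 CPM), a ratio of 230 (41.1 to 9102). The wide intervals come from the few Con UMIs, and both Con UMIs of upper hair follicle-like cells were in 1 cell. In TP, 156 of the 610 upper hair follicle-like and 106 of the 637 granular-like UMIs were in 1 cell each. The TP levels without that cell were 56.0 and 16.4 CPM. In suprabasal-like cells 5 of the 10 Con UMIs and 173 of the 1001 TP UMIs were in 1 cell each, and without these the ratio was 52.9 (22.6 to 163). Basal-like cells, in contrast, reached only 5.15 CPM in TP (61 UMIs, against 1 in Con), below the highest non-epithelial class at 6.02 CPM. Outer bulge-like cells went from 0 to 21 UMIs, 1.19-fold against a floor of 3 counts. The counting interval of that ratio included 1 (lower bound 0.884). At 2.53 CPM in TP these cells were at background. Among named classes, Krt6b in TP was thus above background in suprabasal-like, granular-like and upper hair follicle-like cells. It was also above background in 2 unnamed clusters, with 61 and 8 UMIs in TP.

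Krt16, the type I partner of KRT6, was already above background in Con in IFE suprabasal-like cells (32.8 CPM), basal-like cells (22.0 CPM), granular-like cells (20.4 CPM) and upper hair follicle-like cells (13.0 CPM). Suprabasal-like cells were higher than basal-like cells (1.49, 1.17 to 1.90), and basal- and granular-like cells did not differ beyond counting error. In TP upper hair follicle-like cells went from the last of these 4 to the first, at 504 CPM (4095 UMIs, against 36 in Con), a ratio of 38.7 (27.9 to 55.4). Of these, 19 of the 36 Con UMIs and 457 of the TP UMIs were in 1 cell each, and without both cells the ratio was 72.9 (45.5 to 125). Suprabasal-like cells stood at 396 CPM, a ratio of 12.1 (10.48 to 13.96), and granular-like cells at 177 CPM, a ratio of 8.70 (7.65 to 9.95). Basal-like cells were at 106 CPM, a ratio of 4.80 (3.95 to 5.89), above the pooled non-epithelial level but not above lymphocyte-like cells, which had 105 CPM from 22 UMIs, 13 of them in 1 cell, and 43.5 CPM without that cell. Of the basal-like clusters in TP, the non-cycling one was above background at 124 CPM (116 to 131). The cycling one was not, at 61.3 CPM. Outer bulge-like cells held 1 UMI in Con and 22.5 CPM in TP, close to the non-epithelial 24.2 CPM. The value for companion layer or medulla-like cells was 6.66 CPM in Con and 44.0 CPM in TP, and for inner root sheath-like cells 2.79 and 28.8 CPM. In every one of the 15 epithelial classes and unnamed clusters the interval of the Krt16 ratio lay above 1, as it did in the pooled background, and in 4 of them the TP level was above background.

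Among the non-epithelial classes of the TP library, the lowest Krt16 level was 18.5 CPM, the median 23.6 CPM and the highest, in lymphocyte-like cells, 105 CPM. The suprabasal-like level of 396 CPM lay above all of them. Within that class, the larger cluster, led by Krt1 and Clca3a2, went from 44.8 to 455 CPM of Krt16. Krt16 and Krt6b were among its 10 leading genes although they took no part in the clustering.

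Krt17 had a different distribution from the other 3 members. In Con it was at 3627 CPM in upper hair follicle-like cells, 1457 CPM in outer bulge-like cells and 563 CPM in companion layer or medulla-like cells, each apart from the next. The IFE classes held 64.8 to 107 CPM, against 57.9 CPM in the pooled non-epithelial classes. In TP the same 3 follicle classes led in the same order, at 4668, 2477 and 880 CPM. The ratios were 1.29 (1.26 to 1.32) in upper hair follicle-like, 1.70 (1.62 to 1.78) in outer bulge-like and 1.56 (1.47 to 1.66) in companion layer or medulla-like cells. Germinative layer-like cells, the proliferating follicle matrix, went from 183 to 481 CPM, a ratio of 2.62 (2.36 to 2.91). In the IFE the level in TP was 123 CPM in basal-like, 125 CPM in suprabasal-like and 124 CPM in granular-like cells, with ratios of 1.78 (1.58 to 2.00), 1.17 (1.07 to 1.28) and 1.92 (1.78 to 2.08). The larger suprabasal-like cluster had a ratio of 1.07 (0.976 to 1.19) and the smaller one 0.941 (0.752 to 1.18). In that class 133 of 649 Con UMIs and 217 of 2383 TP UMIs were in 1 cell each. Without both cells the ratio was 1.34 (1.22 to 1.48), and without the TP cell alone 1.07 (0.976 to 1.17). These IFE levels lay above the pooled background of 57.7 CPM in TP but below the highest single class, smooth muscle or pericyte-like cells at 249 CPM. That class had 88 of its 151 UMIs in 1 cell and was at 106 CPM without it, and the median of the 8 non-epithelial classes was 60.0 CPM.

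By the 2-fold limit with its pseudocount, the members higher in TP differed between classes. In IFE basal-like cells they were Krt6a and Krt16, where 0.238% of all genes were higher. In suprabasal-like cells (0.266% of genes), granular-like cells (0.419%) and upper hair follicle-like cells (0.344%) they were Krt6a, Krt6b and Krt16. Only Krt16 was past the limit in outer bulge-like cells (0.530%) and in companion layer or medulla-like cells (0.709%). Its TP levels there were not above background, at 0.930 and 1.82 times the pooled non-epithelial level, and Krt16 in those pooled non-epithelial classes was itself past the limit (1.55 on the log2 scale). The pseudocount, which equals 10 CPM, also decided the calls of low genes: Krt6b in basal-like cells, with a ratio of 25.7 from 1 and 61 UMIs, had a log2 difference of 0.57. Krt17 was past the limit over all cells but in none of these 6 classes. It was past it in germinative layer-like cells (1.34, where 0.401% of genes were higher) and in 3 unnamed clusters, with log2 differences of 1.01, 1.01 and 1.46 where 1.19%, 0.191% and 0.369% of genes were higher. Of the background classes, smooth muscle or pericyte-like cells (1.99) and endothelial-like cells (1.13) had it higher, where 5.75% and 3.13% of genes were, and lymphocyte-like cells lower (-1.23), where 7.82% were lower. With TMM factors, a scaling that assumes most genes are alike in both libraries, it was also past the limit in granular-like cells (1.17, a ratio of 2.46), and with doublets kept its ratio in basal-like cells was 2.27.

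At a finer clustering, upper hair follicle-like cells narrowed to a cluster of 439 Con and 720 TP cells led by Krt79, Defb6 and Cst6, markers of the infundibulum and its junction with the sebaceous gland. Krt16 went from 21.7 to 723 CPM in it, Krt6a from 19.8 to 238 CPM and Krt6b from 1.28 CPM (2 UMIs) to 116 CPM. Its Krt17 level was 5792 and 6757 CPM, the highest of the members. The ratios there were 33.3 for Krt16, 91.1 for Krt6b and 12.004 for Krt6a, in place of 38.7, 104 and 9.31. Beside it stood a cluster of 587 Con and 682 TP cells led by Lrig1, Vsnl1 and Cidea, which took the name sebaceous-like with a score of 2.42, close to its upper hair follicle score of 2.41. In it Krt16 went from 1.84 to 31.1 CPM and Krt6b from 0 to 9 UMIs (3.15 CPM in TP), TP levels near the pooled background, and Krt6a from 13.8 to 51.0 CPM. At a coarser clustering the class as named had 993 Con and 1346 TP cells and ratios of 14.5 for Krt16, 17.8 for Krt6b and 4.71 for Krt6a. Granular-like cells of the finer clustering gave ratios of 27.0 for Krt16 and 17.6 for Krt6a in place of 8.70 and 6.45.

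One cluster that took no name, led by Sox6, Cdh13, Il20ra and Col4a6, held 1867 Con and 1628 TP cells. Its best score was that of IFE basal cells, at 1.16, which was under the limit for a name. Krt16 was at 8.73 CPM in Con and 133 CPM in TP there, a ratio of 15.2 (10.4 to 23.2), and Krt6a at 4.05 and 36.5 CPM, a ratio of 9.01 (5.11 to 17.3). Krt6b held 2 UMIs in Con and 61 in TP (15.0 CPM, above background), and Krt17 went from 86.7 to 145 CPM. At the finer clustering a cluster with the same leading genes (1429 Con and 1464 TP cells) took the name IFE basal-like, with 130 UMIs of Krt6a and 43 of Krt6b in TP (12.7 CPM, 9.20 to 17.1).

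UMI counts at the 3′ end take 1 tag per molecule, so the members were also set against each other as ratios of UMIs without a length scale. Over all cells there were 8.91 UMIs of Krt6a per UMI of Krt6b in Con (6.49 to 12.5) and 1.95 in TP (1.86 to 2.04). In TP the ratio ran from 28.9 (18.7 to 47.0) in outer bulge-like and 20.03 (15.5 to 26.4) in basal-like cells to 2.29 (2.08 to 2.52) in upper hair follicle-like, 0.823 (0.750 to 0.904) in suprabasal-like and 0.785 (0.697 to 0.884) in granular-like cells. Krt6a thus had the more UMIs in basal-like cells, where Krt6b was not above background, and Krt6b in suprabasal- and granular-like cells. The unnamed cluster whose best score was IFE basal, led by Sox6, had a ratio of 2.44 (1.80 to 3.35), close to that of upper hair follicle-like cells. Krt16 per UMI of Krt17 was 0.0375 in Con and 0.270 in TP over all cells. In suprabasal-like cells it was 0.307 in Con (0.260 to 0.360) and 3.15 in TP (3.01 to 3.30). It went from 0.314 to 1.42 in granular-like and from 0.317 to 0.856 in basal-like cells, and from 0.00359 to 0.108 in upper hair follicle-like cells, where Krt17 had the more UMIs in both libraries. Krt17 in the IFE classes was not above background in either library, but 1 cell weighed on that limit in each. The highest class was at 192 CPM in Con and 249 CPM in TP, and at 75.9 and 106 CPM without that cell. In Con the granular-like level of 64.8 CPM (60.3 to 69.6) was close to the pooled 57.9 CPM (54.2 to 61.8). Ratios after subtraction were given no interval. With the pooled non-epithelial CPM of each gene subtracted, the ratio went from 2.68 to 2.29 in granular-like and from 1.76 to 1.24 in basal-like cells, so that the direction there turned, whereas it went from 0.634 to 5.48 in suprabasal-like and from 0.00317 to 0.104 in upper hair follicle-like cells.

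The classes that held the UMIs of each member also differed between libraries. Outer bulge-like cells held 30.03% of the Krt6a UMIs in Con and 12.3% in TP, upper hair follicle-like cells 13.3% and 28.3%, and basal-like cells 19.3% and 24.8%. Of the Krt6b UMIs in TP, 39.5% were in suprabasal-like, 25.1% in granular-like and 24.1% in upper hair follicle-like cells. Suprabasal-like cells held 23.4% of the Krt16 UMIs in Con and 36.5% in TP, granular-like cells 28.1% and 27.9%, and upper hair follicle-like cells 4.24% and 19.9%. Krt17 stayed a follicle transcript, with 44.2% and 49.7% in upper hair follicle-like cells. Its outer bulge-like share was 9.05% in Con and 27.0% in TP, beside a share of all cells in that class of 1.53% and 8.38%. The non-epithelial classes together held 27.9% of the 43 Krt6b UMIs in Con, or 6.06% without the 1 DPC-like cell, and between 1.46% and 2.60% of the UMIs of each member in TP.

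**Figure D3:**
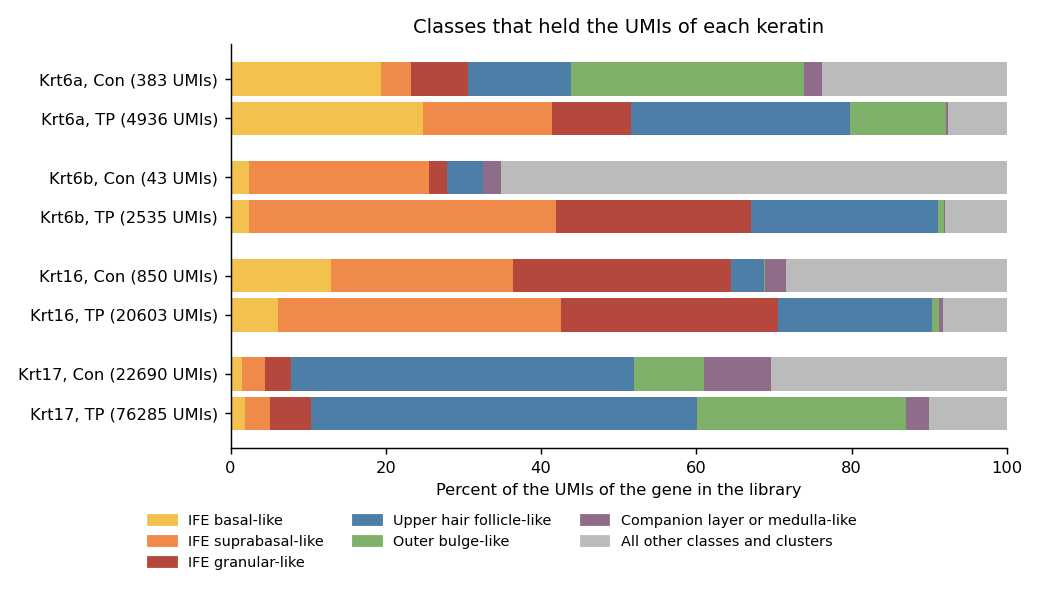
Share of the UMIs of each stress keratin held by each class in Con and TP, as percent of the gene's UMIs in the library. In TP the 3 IFE classes and upper hair follicle-like cells hold most of Krt6a, Krt6b and Krt16, and upper hair follicle-like plus outer bulge-like cells hold most of Krt17.

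To compare shares of cells across depths, every cell was thinned to 1000 UMIs and shallower cells were left out (5362 of the kept Con and 883 of the kept TP cells). Krt16 was then seen in 1.59% of Con and 10.9% of TP suprabasal-like cells (unthinned 2.74% and 25.1%), in 1.08% and 6.30% of granular-like cells (4.03% and 34.9%) and in 0.550% and 6.79% of upper hair follicle-like cells (0.875% and 16.8%). The share in non-epithelial cells was 0.0991% in Con (0.0322 to 0.231) and 2.13% in TP (1.66 to 2.69), unthinned 0.479% and 10.52%, in classes whose medians were 1513 to 2768.5 UMIs per cell in Con and 1779 to 6507 in TP. Suprabasal-, granular- and upper hair follicle-like cells had medians of 2423, 7441.5 and 1833.5 UMIs in Con and of 6147, 14835 and 3902.5 UMIs in TP. The outer bulge-like share of Krt16 in TP, 2.49% (1.75 to 3.44), did not stand apart from that background.

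Krt6a was seen after thinning in 0.743% of Con and 4.17% of TP basal-like cells (unthinned 1.91% and 14.2%), and in 0.880% and 3.40% of upper hair follicle-like cells (1.75% and 9.47%). In outer bulge-like cells the shares were 2.21% (1.11 to 3.92) and 3.81% (2.88 to 4.93), unthinned 6.03% and 10.4%, with overlapping intervals. Krt6b reached 1.202% of suprabasal-like, 1.03% of granular-like and 1.92% of upper hair follicle-like cells in TP (unthinned 3.92%, 5.98% and 3.08%). In Con the thinned shares were 0.102% of suprabasal-like cells and 0 of 1388 granular-like and 0 of 909 upper hair follicle-like cells. The non-epithelial background was 0.0793% and 0.595% for Krt6a, and 0.0397% and 0.376% for Krt6b. Even in the classes with the highest levels, Krt6a, Krt6b and Krt16 were thus seen in a minority of cells. Krt17 was seen in more of them, after thinning in 45.7% of Con and 51.6% of TP upper hair follicle-like cells (unthinned 52.8% and 68.4%), and in 43.0% and 59.7% of outer bulge-like cells (52.3% and 74.8%), against 4.92% and 5.76% of non-epithelial cells.

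**Figure D4:**
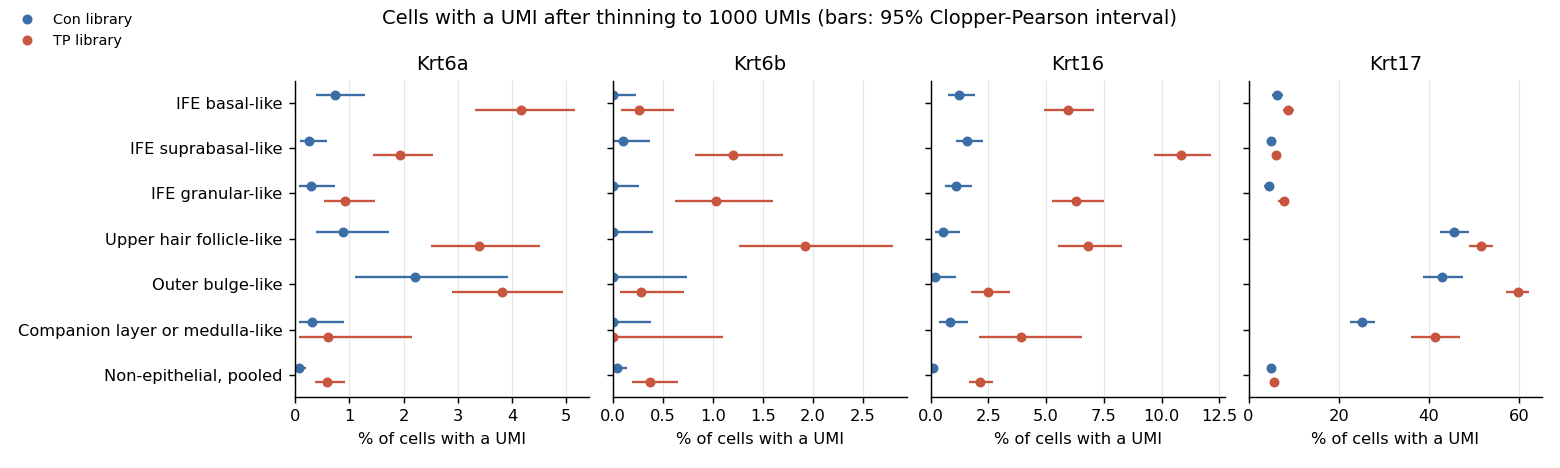
Percent of cells with at least 1 UMI of each stress keratin after thinning to 1000 UMIs, in Con (blue) and TP (red), with 95% Clopper-Pearson intervals. Krt16 in suprabasal-like cells goes from 1.59% to 10.9%, and its background in non-epithelial cells from 0.0991% to 2.13%.

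The UMIs of Krt16 were concentrated in few cells. Among 2578 thinned suprabasal-like cells of TP, 769 UMIs were counted, up to 25 in 1 cell, and 86 cells had 3 or more. Con had 53 UMIs in 1953 such cells, up to 6 in 1 cell, and 5 cells with 3 or more. In upper hair follicle-like cells of TP, 36 of 1354 cells had 3 or more, up to 21 UMIs. Outer bulge-like and DPC-like cells of TP, whose levels were near background, held no thinned cell with more than 1 UMI of Krt16, and at full depth the most in 1 cell was 3 in both. Not all background classes were so even: after thinning the most in 1 cell was 5 in myeloid-like, 3 in lymphocyte-like and 2 in melanocyte-like cells. In the unnamed cluster led by Acta1, which is not part of the background, it was 7.

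The members were in part seen in the same cells of the TP library, which is a description of cells of 1 suspension. Of 31 suprabasal-like cells with a Krt6b UMI, 20 (64.5%, 45.4 to 80.8) had one of Krt16, against 10.2% of cells without Krt6b. Of 50 suprabasal-like cells with Krt6a, 28 (56.0%) had Krt16, against 10.0% of the rest. In the other direction, most cells with Krt16 showed neither gene. Of 280 suprabasal-like cells with Krt16, 10.0% had Krt6a and 7.14% Krt6b, against 0.957% and 0.479% of cells without Krt16. In upper hair follicle-like cells, 45.7% of 46 cells with Krt6a had Krt16 and 26.1% had Krt6b, against 5.4% and 1.1% of cells without Krt6a. Krt17 was seen there in 48.9% of 92 cells with Krt16 and in 51.7% of those without, and in 63.0% (47.5 to 76.8) of cells with Krt6a against 51.1%. In suprabasal-like cells, Krt17 was in 35.5% (19.2 to 54.6) of cells with Krt6b against 5.8%, in 24.0% of those with Krt6a against 5.8%, and in 12.1% (8.6 to 16.6) of those with Krt16 against 5.4%. Among basal-like cells, 22.5% (13.9 to 33.2) of 80 cells with Krt6a had Krt16, against 5.2%, and 1.2% had Krt6b. In outer bulge-like cells, Krt6a went with Krt17 (78.2%, 65.0 to 88.2, of 55 cells, against 58.9%), while 7.3% (2.0 to 17.6) of those cells had Krt16, against 2.3% of the rest, and none had Krt6b, against 0.288%.

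Cells with a member were also compared with the other cells of their class for genes of lists of epidermal, wound and growth factor genes, as sizes within the TP library. Thinned cells were used, so the cells without a member include some that held it at full depth. Of suprabasal-like cells, 280 had Krt16 after thinning and 647 before it. Suprabasal-like cells with Krt16 had Sprr1b at 301 CPM against 28.3 CPM without it (10.6-fold) and Sprr1a at 487 against 48.7 CPM (9.99-fold). These genes encode small proline-rich proteins, which are cross-linked into the cornified envelope. Stfa1, a cystatin family gene, stood at 154 against 23.9 CPM, and Krt2, a keratin of the upper epidermis, was lower, at 50.1 against 185 CPM. In basal-like cells with Krt6a, the EGF receptor ligand gene Areg was at 476 against 14.7 CPM (32.4-fold, 19.3 to 55.2) and Hbegf, another such ligand, at 563 against 171 CPM. Krt15, a keratin of resting basal and bulge cells, was at 976 against 2754 CPM in them. Upper hair follicle-like cells with Krt6a had Sprr1b at 1700 against 55.0 CPM, Sprr1a at 3901 against 331 CPM and Areg at 327 against 32.9 CPM. Outer bulge-like cells with Krt6a had Krt14 at 5061 against 1523 CPM and Krt79 at 583 against 203 CPM. Areg had too few UMIs there to be ranked, 1 in cells with Krt6a and 7 in the others.

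The genes whose pattern was most like each member were ranked by Pearson's r of log2(CPM + 1) over 59 points, each 1 cluster of 1 library with at least 50 cells. The points share libraries, depth and free RNA, so r is a description. For Krt6a they were Stfa3 (0.784), Krt14 (0.772), Itgb6 (0.743), Fosl1 (0.726) and Duox1 (0.724). For Krt16 they were Cstdc5 (0.886), Sprr1b (0.867), Arc (0.865), Stfa1 (0.802) and Calm4 (0.798). Krt6b had Sprr1b (0.789), Cstdc5 (0.757), Sprr2h (0.736), Sprr1a (0.721) and Calm4 (0.700). For Krt17 the list was of another kind, with the upper follicle keratin gene Krt79 (0.743), the follicle stem cell regulator Sox9 (0.725), Gsdma3 (0.717), Fam167a (0.701) and Pthlh (0.694). Among the members, Krt6b and Krt16 were most alike (0.829), then Krt6a and Krt16 (0.680) and Krt6a and Krt6b (0.584), while Krt17 reached 0.510 with Krt6a, 0.285 with Krt16 and 0.237 with Krt6b. Within the 29 Con points Krt6b and Krt16 had 0.347, Krt6a and Krt16 0.353, and Krt6a and Krt6b -0.22, against 0.851, 0.686 and 0.607 within the 30 TP points. The 5 genes most like Krt6b ran from -0.06 to 0.432 within Con, where its counts were few, while those of Krt6a ran from 0.619 to 0.828, of Krt16 from 0.544 to 0.786 and of Krt17 from 0.723 to 0.783.

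The other keratins, and genes that act around the stress keratins, were counted by the 2-fold limit over all cells. By that limit 1.13% of all genes were higher and 0.545% lower, which holds for each list below without TMM factors. With TMM factors 442 of 26217 genes were higher over all cells and 64 lower. No share of all genes was computed with these factors within classes, so TMM counts there have no background beside them. Shares of all genes that were higher within the classes are those given above for the members. Shares of genes that were lower within these classes are not given, so lower calls there have no background beside them. Of 15 epidermal and follicle keratins 7 were higher in TP and none lower, with a median log2 difference of 0.96. They were Krt14 (926 to 2198 CPM), Krt1 (1273 to 4336 CPM), Krt10 (3.34-fold), Krt77 (3.43-fold), Krt78 (3.004-fold), Krt79 (3.30-fold) and Krt2 (6.46-fold). Within the classes, the same list gave 1 higher gene of 14 in basal-like cells (Krt77), 1 of 15 in suprabasal-like cells (Krt2), and 1 of 14 in upper hair follicle-like cells (Krt1). Companion layer or medulla-like cells had 5 higher of 13, Krt1, Krt10, Krt2, Krt77 and Krt78. For the listed genes no level in the non-epithelial classes was computed. The part of free RNA in their class calls was not tested. Of 15 keratins of the list in outer bulge-like cells, 1 was higher (Krt79) and 1 lower (Krt8). Granular-like cells had Krt2 higher and Krt5 (1219 to 486 CPM), Krt14 (1942 to 956 CPM) and Krt15 (832 to 208 CPM) lower. With TMM factors the calls of Krt5 and Krt14 there were lost (ratios of 0.512 and 0.632), and 9 genes of the list were higher over all cells, 3 in basal-like, 4 in suprabasal-like, 3 in granular-like and 2 in upper hair follicle-like cells. The TMM count was 3 in outer bulge-like and 6 in companion layer or medulla-like cells. Of the neighbours in the keratin clusters, Krt14 and Krt5 had ratios over all cells of 2.37 and 1.84, and Krt75, a companion layer keratin, 0.570. Krt71, an inner root sheath keratin, had a ratio over all cells of 0.292. Inner root sheath-like cells went from 14.3% of Con to 5.05% of TP cells, and companion layer or medulla-like cells from 2.54% to 1.87%. The part of class shares in these 4 ratios was not tested.

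Among the 7 genes of the EGF receptor and its ligands, 3 were higher over all cells, namely Hbegf (7.58-fold), Ereg (7.21-fold) and Areg (3.38-fold), and the receptor Egfr had a ratio of 0.759. Hbegf went from 49.6 to 226 CPM in basal-like, 46.0 to 246 CPM in suprabasal-like and 38.7 to 183 CPM in upper hair follicle-like cells. Areg went from 5.80 to 48.2 CPM in basal-like cells. Of 21 regulators described for stress keratin genes 5 were higher, among them Fosl1 (3.98 to 55.3 CPM), which encodes the AP-1 protein FRA1. Fosl1 was the only one of the 21 past the limit in basal-like (27.6 to 222 CPM), suprabasal-like (11.04 to 109 CPM), granular-like (4.69 to 29.8 CPM) and upper hair follicle-like cells (3.25 to 46.3 CPM). In outer bulge-like cells Fos, Junb and Gli1 were past it instead. Companion layer or medulla-like cells had 6 of the 21 past it, where 0.709% of all genes were higher without TMM factors. The count there was 6 with TMM factors too. With TMM factors 7 of the 21 were higher over all cells, Junb passed too in basal-like cells, and 4 of the 7 EGF receptor and ligand genes were higher over all cells. The epithelial master regulator Trp63 had a ratio of 1.26.

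Of 10 small proline-rich protein genes, Sprr1a (12.2 to 118 CPM) and Sprr1b (3.15 to 56.9 CPM) were higher over all cells. Sprr1b went from 5.11 to 70.5 CPM in suprabasal-like, 8.35 to 114 CPM in granular-like and 11.6 to 194 CPM in upper hair follicle-like cells. Of 10 alarmin and antimicrobial genes, Stfa1 (7.57-fold) and the defensin gene Defb6 (3.26-fold) were higher, whereas S100a8 had a ratio of 1.19. None of 9 measured keratinocyte cytokine genes passed the limit over all cells, with Il1rn, the interleukin-1 receptor antagonist, at 2.23-fold and Il33 at 1.79-fold. Within the classes, Ccl20 was past the limit in basal-like and Il33 in upper hair follicle-like cells, where 0.238% and 0.344% of all genes were higher. Over all cells Il1b and Cxcl1 were just under the limit, with log2 differences of 0.915 and 0.916 that include the pseudocount. Their ratios without it were larger than those of Il1rn and Il33. Of 12 genes of the wound edge and migration none was higher, and Inhba, an activin subunit, was lower (144 to 62.3 CPM). Inhba was among the 10 leading genes of a DPC-like cluster that held 2304 Con and 336 TP cells. The part of that cluster in its lower level was not tested. Of 11 filament partners, Flg (16.6-fold), which bundles keratins in the granular layer, and Sfn (2.27-fold) were higher. The proliferation list of 6 genes had none higher and Mki67 lower (0.456). With TMM factors over all cells the calls of Inhba (0.515) and Mki67 (0.542) were lost. With these factors 3 cytokine genes (Il1b, Cxcl1 and Il1rn) and 4 filament partners were higher. The TMM ratio over all cells was 7.602 for Il1b and 7.742 for Cxcl1. Within the classes, TMM factors gave 1 higher cytokine gene in basal-like and 1 in upper hair follicle-like cells. They gave 0 in suprabasal-, granular-, outer bulge- and companion layer or medulla-like cells. Myeloid-like cells went from 0.435% of Con to 2.28% of TP cells, and their part in the sums of Il1b and Cxcl1 was not tested.

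**Figure D5:**
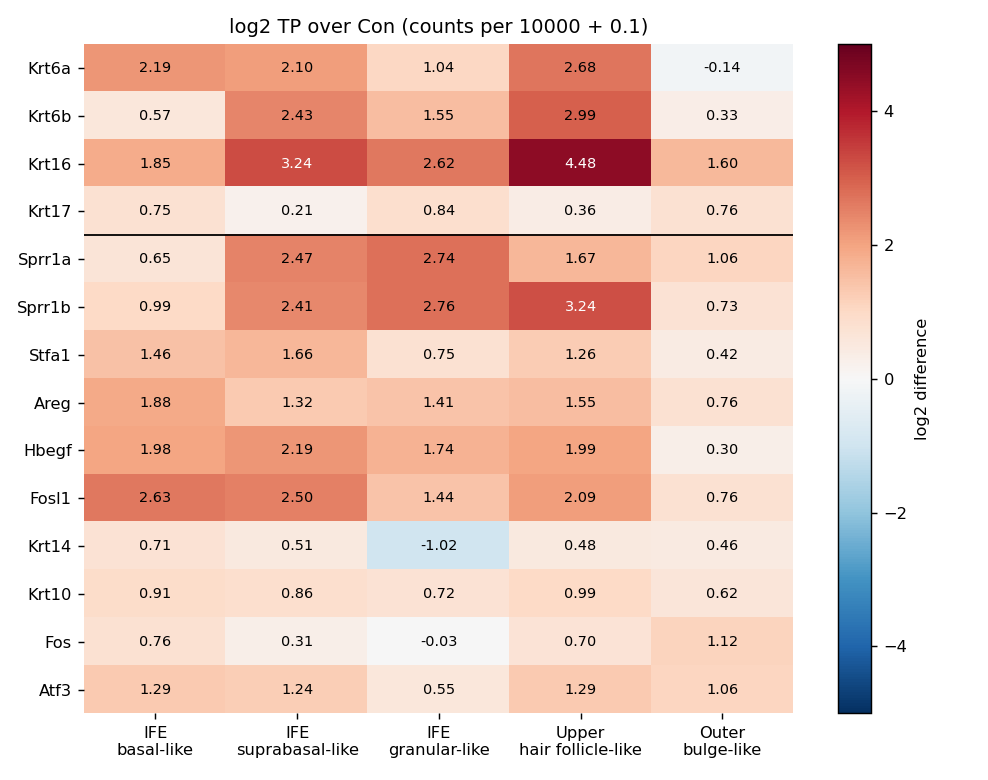
Difference between TP and Con in log2(counts per 10000 + 0.1) for the 4 stress keratins (top rows) and for 10 other listed genes, picked for the plot after their values were seen, in 5 epithelial classes. Krt16 has the largest value, 4.48 in upper hair follicle-like cells, and in outer bulge-like cells Krt6a is at -0.14.

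Immediate-early genes, which cell dissociation can induce, were also higher in the TP library. Of 10 such genes 7 were higher over all cells, with a median log2 difference of 1.502, Atf3 at 4.06-fold and Fos at 3.04-fold among them. The count was 3 in basal-like, 1 in suprabasal-like, 0 in granular-like, 1 in upper hair follicle-like, 5 in outer bulge-like and 8 in companion layer or medulla-like cells. Of all genes, 1.13% were higher over all cells, and 0.238%, 0.266%, 0.419%, 0.344%, 0.530% and 0.709% in these classes in the same order. Their part in the differences of the stress keratins was not tested.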

How the data were processed

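The Con and TP libraries, each made from 15 pooled mice, were analysed, and the TP group that also received an antibody is not analysed here. The authors ran Cell Ranger 8.0.1 against mm10, and the deposited values are whole UMI counts per gene and called barcode, without normalization. The authors' cell limits and doublet removal came after these files and were repeated here: 200 to 8000 genes, at most 10% mitochondrial counts, and a rewritten DoubletFinder procedure (artificial doublets at 25% of the merged data, nearest 1%, 7.5% removed per library). The libraries held 45709 Con barcodes with 130999979 UMIs and 25931 TP barcodes with 166929585 UMIs. The limit on mitochondrial counts removed 3465 and 5871 barcodes, and 3168 and 1503 were called doublets. A deeper library gives narrower counting intervals, and at a count of 0 a floor of 3 counts was used.

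Seurat 5.3.0 (SeuratObject 5.2.0, R 4.3.3) gave log normalization, 2000 variable genes without the 4 members, reciprocal PCA integration in place of the default anchors, 30 components and Louvain clusters at resolution 1. The genes that accompany the members were not kept out of these features. Clusters were named after the best scoring class of markers if the score was 1.25 or more, 3 or more markers were detected (10 CPM) and foreign markers did not outnumber its own among the 10 leading genes. UMIs were summed per class and library. Intervals at 95% are exact Poisson for levels, exact conditional binomial for ratios and Clopper-Pearson for shares. All else was computed with numpy 2.4.6, pandas 2.3.3, scipy 1.17.1, scikit-learn 1.9.0 and matplotlib 3.10.9 under Python 3.11.15, and edgeR 4.0.16 gave TMM factors only. The computations were checked on simulated counts drawn independently from a Poisson distribution. The check therefore does not cover UMIs that are concentrated in single cells.

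The members, gene lists and markers were chosen with earlier results of these data known. The genes named are the members, the 5 most alike per member (genes with at least 200 UMIs), the up to 5 highest genes of each list and those past the 2-fold limit. Genes named for cells with against without a member had the highest or lowest ratios among listed genes with at least 50 UMIs, and some of these are not given. Alternatives were TMM factors, the mean of ln(counts per 10000 + 1), fixed cluster shares, other limits on mitochondrial counts, doublets and depth, resolutions of 0.5 and 2, other thinning depths and another pseudocount. Sequences are from GENCODE transcripts of GRCm39 and positions from RefSeq's GRCm38 annotation, matched by symbol for 4 of 4 members.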

Additional observations from a re-analysis of the deposited data

Results flagged for a closer look

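Krt17 was lower in TP in 2 non-epithelial classes, against a direction that was higher in every epithelial class described. Within suprabasal-like cells, though, the smaller cluster had a ratio of 0.941 (0.752 to 1.18). In melanocyte-like cells Krt17 was at 87.0 CPM in Con (126 UMIs) and 47.3 CPM in TP (53 UMIs), a ratio of 0.544 (0.387 to 0.755). In lymphocyte-like cells it was at 192 CPM in Con (97 UMIs) and 76.0 CPM in TP (16 UMIs), a ratio of 0.395 (0.217 to 0.675). In that class 59 of the 97 Con UMIs were in 1 cell, and without the cell with most UMIs in each library the levels were 75.9 and 55.0 CPM, a ratio of 0.725 (0.334 to 1.45) whose interval included 1. In melanocyte-like cells the ratio without such cells was 0.554 (0.388 to 0.782). The difference between these classes and the epithelial ones was not tested. After thinning, the shares of cells with a Krt17 UMI had overlapping intervals in both, 5.65% and 4.40% of melanocyte-like and 4.52% and 6.49% of lymphocyte-like cells.

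The members also had UMIs in barcodes that the report's comparisons leave out. Among barcodes over the mitochondrial limit, Krt6a was at 27.5 CPM in TP against 1.41 CPM in Con, Krt6b at 20.5 against 0.201 CPM (1 UMI), Krt16 at 99.8 against 5.43 CPM and Krt17 at 195 against 129 CPM. Among barcodes called doublets, Krt6a was at 44.3 CPM in TP against 3.14 CPM in Con, Krt6b at 27.2 against 0.0491 CPM (1 UMI), Krt16 at 152 against 7.21 CPM and Krt17 at 449 against 193 CPM. All 8 levels were higher in TP.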

How the results depend on the processing

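No alternative turned the direction of a member over all kept cells: of 40 values, 16 moved by less than the counting interval, 24 by more, and 8 by over 1.5-fold. With TMM factors, which raise every ratio by 1.19 (0.25 on the log2 scale), the ratios of Krt6a, Krt16 and Krt17 were 12.3, 23.1 and 3.21. With the mean of ln(counts per 10000 + 1), those of Krt6b, Krt16 and Krt17 were 24.8, 13.3 and 2.09. With the control cluster shares Krt6a, Krt6b, Krt16 and Krt17 were at 5.26, 24.9, 10.49 and 1.54, and with the TP shares Krt6a, Krt16 and Krt17 at 4.02, 10.6 and 1.45. A mitochondrial limit of 5% gave 8.60, 16.0 and 2.43 for these 3, cells of named classes 8.84, 17.3 and 2.34, and epithelial classes 8.52, 16.4 and 2.26. Krt17 was at 2.62 with no mitochondrial limit and 2.64 with doublets kept.

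Genes higher in TP numbered 790 in place of 296 with a pseudocount of 0.01, and those lower 623 in place of 143. With TMM 442 were higher and 64 lower, so that the higher share of called genes was 67.4% as reported, 55.9% with the smaller pseudocount and 87.4% with TMM. Per class, 106 of 134 ratios moved by less than their interval and 13 by over 1.5-fold. The direction turned for Krt6a in outer bulge-like cells alone, within its interval, from 0.896 to 1.02 with TMM and 1.01 at resolution 2, with a lowest value of 0.849. Krt16 in upper hair follicle-like cells ran from 14.5 (resolution 0.5) to 44.2 (TMM), and Krt6b there from 17.8 to 119. In suprabasal-like cells, resolution 0.5 moved Krt6a from 17.5 to 28.1, Krt6b from 32.0 to 51.6 and Krt16 from 12.1 to 18.1. Shares of cells depended on the thinning: of 144 such values under other depths or limits 34 stayed within their interval and 97 moved by over 1.5-fold. Of 48 shares of UMIs 20 stayed within it and 16 moved by over 1.5-fold. An alternative chosen after the data were seen left out, in each library, the cell with most UMIs of the gene. Over all kept cells it gave 10.54 for Krt6a, 57.3 for Krt6b, 20.1 for Krt16 and 2.73 for Krt17, and in upper hair follicle-like cells 72.9 for Krt16. Subtracting the pooled background, also chosen later, turned the TP against Con ratio of Krt16 per Krt17 from 4.54 to 0.855 in granular-like and from 2.70 to 0.705 in basal-like cells. No interval was computed for the subtracted values. In placing doublets, 572 Con and 145 TP barcodes took no class. No paired analysis was possible because each group is 1 library, and no replicate could be left out. Krt6b had the fewest UMIs of the members, with 43 in all of Con. The cause of these shifts was not tested.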

Other observations

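Some values of the members lay outside the classes described. In smooth muscle or pericyte-like cells, a class of 62 Con and 112 TP cells that should lack epithelial keratins, Krt17 was at 55.5 CPM in Con (10 UMIs) and 249 CPM in TP (151 UMIs), a ratio of 4.49 (2.38 to 9.56). Of the TP UMIs 88 were in 1 cell, and without the cell with most UMIs in each library the ratio was 2.11 (1.04 to 4.82), whereas Krt16 there held 0 and 12 UMIs. An unnamed cluster led by histone genes such as Hist1h2ae and by Pclaf, a gene of DNA replication, had Krt17 at 144 CPM in Con and 300 CPM in TP, a ratio of 2.08 (1.96 to 2.21), and Krt6b at 0 UMIs and at 26 UMIs in 26 cells. Its Krt6b level of 2.16 CPM in TP was 0.633 times that of the pooled non-epithelial classes. The shallowest unnamed cluster, led by the muscle genes Acta1 and Tnnt3, had medians of 901 and 747 UMIs per cell, with 8 UMIs of Krt6b among its 388 TP cells (15.0 CPM) and 3 among its 6204 Con cells (0.454 CPM).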
